A study of Homo sapiens with 4 samples.

Results

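Ribosomal protein genes were examined for peaks of FLAG-tagged ATOH8 and of SMAD3. Members were the protein-coding RefSeq genes on chromosomes 1 to 22 and X with the symbol RPSA, RPLP0, RPLP1 or RPLP2. Symbols of RPL or RPS with a number, followed by no more than A, X or L and a further number, completed the set. This gave 84 of 19970 protein-coding genes. Of these, 52 encode proteins of the large ribosomal subunit and 32 proteins of the small subunit, and 7 of the 84 carry the suffix L of a "like" gene (such as RPL10L). RPL36AL and RPSA2 fell outside the rule, and neither had a peak of either list within 5 kb of an end.

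The series used A549, a human lung adenocarcinoma line, in which ATOH8 had been introduced stably with a retrovirus. All 4 libraries came from these transduced cells: 1 chromatin immunoprecipitation (ChIP) with an antibody against FLAG, 1 against SMAD3, and 1 input library for each. ATOH8 is a basic helix-loop-helix transcription factor, a family that binds E-boxes, and SMAD3 is a DNA-binding signal carrier of the TGF-beta pathway. The FLAG ChIP is read here as the introduced ATOH8 carrying the tag, although the labels name only the antibody, and cells without the retrovirus were not analysed here. After removal of duplicate tags, 17133946 tags were left in the FLAG ChIP and 16857119 in the SMAD3 ChIP. There was 1 library per antibody, so no replicate error exists and no value below carries a test.

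Ribosomal proteins assemble with ribosomal RNA into the subunits that translate messenger RNA. Their genes are among the most strongly transcribed in growing cells. Most of their transcripts begin with a cytosine followed by a run of pyrimidines, the terminal oligopyrimidine (TOP) tract through which translation is tuned to growth signals. Several of these genes carry small nucleolar RNA genes in their introns, and their messenger RNAs have left many processed pseudogenes across the genome. The series title concerns arrest of the cell cycle, to which ribosome supply is tied.

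Of 84 ribosomal protein genes, 15 had a peak summit of at least 1 list within 5 kb of a gene end, a share of 17.9% against 10.4% of all protein-coding genes. The FLAG list, with a peak at 5.34% of all genes, accounted for 9 of them: RPL11, RPS27, RPL15, RPS10, RPL27A, RPS15A, RPL38, RPS19 and RPL3. The SMAD3 list, with a peak at 5.47% of all genes, accounted for the other 6: RPL10A, RPL30, RPL12, RPS13, RPS29 and RPL28. No gene was in both sets, to be set against 0.431% of all genes. The remaining 69 members had no peak of either list in that window. Peaks were called by the authors at a permissive p cutoff of 0.0065, and 15 of the 16 peaks at these genes had a q above 0.05. The exception, near RPL38, lay far closer to TTYH2. In the whole lists, 25.7% of FLAG peaks and 7.89% of SMAD3 peaks had a q under 0.05.

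**Figure D1:**
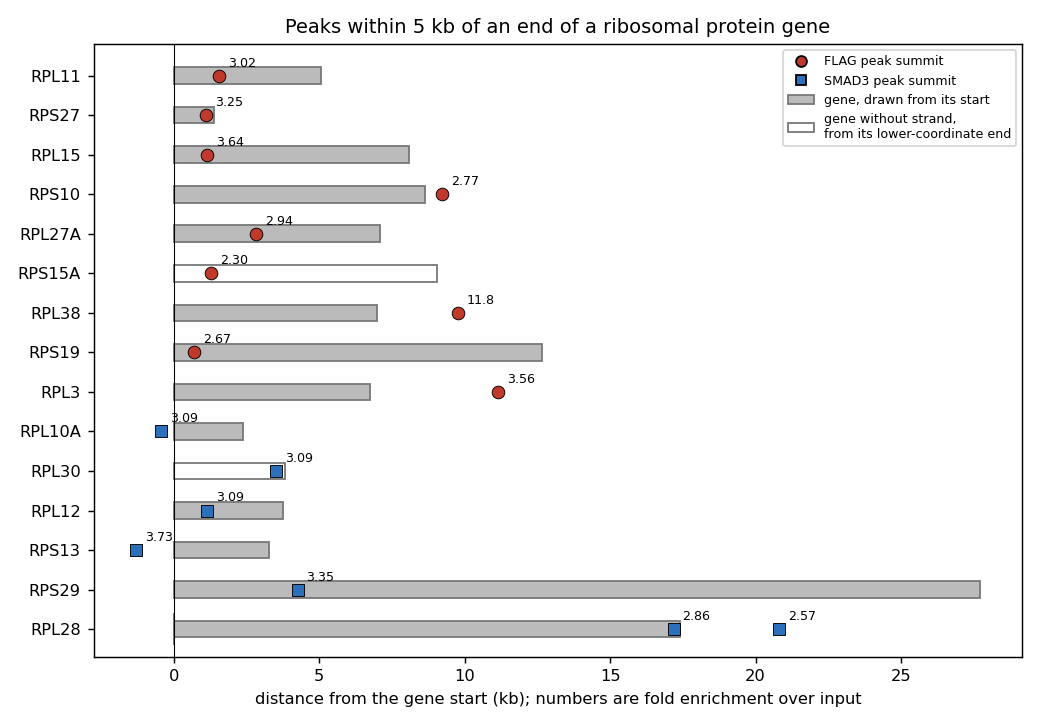
Each bar is a ribosomal protein gene drawn from its transcription start at 0 to its far end, in kb, and symbols mark summits of FLAG (circles) and SMAD3 (squares) peaks with their fold enrichment over input beside them. Open bars are RPS15A and RPL30, whose strand was not used here and which are drawn from the end with the lower coordinate. 5 FLAG summits lie inside filled bars within 3 kb of the start, and the RPL38 peak, at 11.8-fold, stands beyond the far end of its gene.

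The start sites of members with peaks nearest to them are printed first, because the tract at the start is what the genes share by sequence. Each window holds 15 bases before the annotated RefSeq start (GRCh38.p14) and 15 from it onward, on the strand of the gene. Capitals mark a cytosine followed by at least 4 pyrimidines that begins within 5 bases of the start. The first 5 genes had a FLAG summit within 3 kb downstream of the start, and the last 3 had a SMAD3 summit within 3 kb of it.
RPL11, chr1:23691764-23691793, plus strand: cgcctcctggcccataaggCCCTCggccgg
RPS27, chr1:153990747-153990776, plus strand: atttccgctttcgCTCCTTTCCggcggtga
RPL15, chr3:23916530-23916559, plus strand: ggcgctggggcctgctggaggagcttcacg
RPL27A, chr11:8682777-8682806, plus strand: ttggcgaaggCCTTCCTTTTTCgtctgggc
RPS19, chr19:41860240-41860269, plus strand: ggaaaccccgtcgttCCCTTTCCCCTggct
RPL10A, chr6:35468386-35468415, plus strand: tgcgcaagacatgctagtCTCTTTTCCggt
RPL12, chr9:127451392-127451421, minus strand: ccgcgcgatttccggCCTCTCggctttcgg
RPS13, chr11:17077653-17077682, minus strand: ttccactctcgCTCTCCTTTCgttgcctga

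Of 67 members with an entry in the RefSeq promoter table, 50 (74.6%) held such a tract, against 22.1% of 15811 protein-coding genes with an entry. Exactly at the annotated start the shares were 64.2% and 4.59%. Members of each kind held the tract: 7 of 8 with a FLAG peak, 4 of 5 with a SMAD3 peak and 39 of 54 with neither. RPL15 and RPS29 were the members with a peak and an entry that lacked it. One start was used per gene, the outermost where several were listed, so a tract at an inner start was not counted.

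FLAG peaks were counted at more ribosomal protein genes than the share in other genes of their length gives, a difference that 1 library cannot test. Within 5 kb of a gene end, 9 of 84 (10.7%, exact 95% interval 5.02 to 19.4%) had a FLAG peak. Among all protein-coding genes the share was 5.34%. Members are short, with a median length of 5046 bp against 24190 bp over all genes, and a window around each end then overlaps the other. Genes were therefore divided into 10 classes of length. In other genes of the members' classes the share was 4.08%, or 3.43 genes of 84. The observed number was 2.62 times that. The interval covers counting error only and treats genes as independent.

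For SMAD3 the count was closer to that of other genes, and the difference between both lists was not tested. A SMAD3 peak within 5 kb was found at 6 of 84 (7.14%, exact 95% interval 2.67 to 14.9%), against 5.47% of all genes and 4.58% of genes of like length. The ratio to like length was 1.56. With both lists pooled, 15 of 84 members (17.9%) had a peak, against 10.4% of all genes. Peaks of both lists were present at 0.431% of all genes and at 0 of 84 members, a number too small to set apart from that share.

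Over 4 windows, the FLAG ratio to like length was largest within 3 kb. There, 8 of 84 members (9.52%) had a FLAG peak, against 3.67% of all genes and 3.08% of genes of like length, a ratio of 3.09. Within 1 kb the count was 3 (3.57%), against 1.80% and 1.45%. Within 10 kb it was 10 (11.9%), against 8.98% and 6.33%, so the wider ring added a single member. SMAD3 counts were 3 within 1 kb (1.52% of all genes), 5 within 3 kb (3.60%) and 10 within 10 kb (9.65%). The counts of both lists were equal within 1 kb and within 10 kb, and SMAD3 gained 4 members between 5 and 10 kb.

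**Figure D2:**
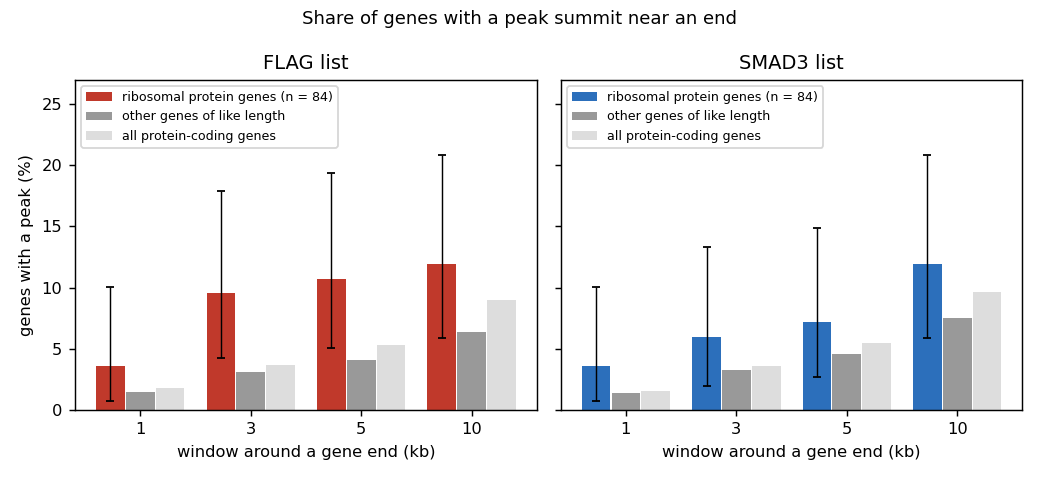
Bars give the percentage of genes with a peak summit within 1, 3, 5 or 10 kb of either gene end, for 84 ribosomal protein genes, for other genes of like length and for all protein-coding genes, with exact 95% intervals on the first. In the FLAG panel the member bar is 10.7% at 5 kb against 4.08% and 5.34%, and in the SMAD3 panel it is 7.14% against 4.58% and 5.47%.

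Where strand was known, the FLAG summits within 3 kb of a start lay on its transcribed side. Those of RPS10, RPL38 and RPL3 lay beyond the far end of the gene. Of 67 members, 5 (7.46%) had a FLAG summit within 3 kb downstream, against 1.49% of 15811 genes and 1.20% of genes of like length. Within 3 kb upstream there was none, against 1.01% of all genes and 0.674% of genes of like length. That like-length share amounts to 0.452 genes of 67, too few to set none apart from it. SMAD3 gave 1 member downstream, against 1.11% of all genes, and 2 upstream, RPL10A and RPS13, against 0.904%. This division by side was chosen after the positions had been seen. At 0 to 5 genes per class it describes single genes more than a pattern.

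Of the FLAG peaks inside genes, that of RPL15 had the highest fold. RPL15 is a large subunit protein whose gene is mutated in some patients with Diamond-Blackfan anemia, an inherited failure of red cell production. The peak spanned chromosome 3, 23917469 to 23917735, with its summit 1132 bp downstream of the start. Its pileup, the number of extended tags at the summit, was 9, the fold enrichment over local input was 3.64 and the −log10 q was 1.05. Of all FLAG peaks, 80.1% had a lower fold.

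RPS27 and RPL11 had weaker peaks of the same placement. RPS27 encodes a zinc-binding protein of the small subunit. Its peak (chromosome 1, 153991789 to 153992031) had 8 tags, a fold of 3.25 and a −log10 q of 0.490. The summit was 1089 bp from the start and 304 bp from the far end, since the gene is only 1394 bp long. The gene NUP210L, a nucleoporin-like gene, had an end 839 bp from that summit. RPL11 encodes a protein that, outside the ribosome, binds MDM2 and thereby stabilizes p53. Its peak (chromosome 1, 23693193 to 23693575) had 7 tags, a fold of 3.02 and a −log10 q of 0.227, with the summit 1558 bp inside the gene. No other protein-coding gene end lay within 50 kb of that summit, the nearest being ELOA at 50134 bp.

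RPL27A and RPS19 completed the group with a FLAG summit downstream of the start. RPS19 was the first gene linked to Diamond-Blackfan anemia. Its peak (chromosome 19, 41860898 to 41861156) had the highest pileup of the 5, 11 tags, but a fold of only 2.67, on an implied input background of 3.50 tags. That background, computed from the deposited pileup and fold, was the highest among the FLAG peaks at members, and its part in the call was not tested. At RPL27A, a large subunit gene, the peak (chromosome 11, 8685616 to 8685856) had 8 tags and a fold of 2.94. Its summit lay 2831 bp from the RPL27A start and 2392 bp from an end of TRIM66, so it was nearer to the neighbor.

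RPS15A, RPS10 and RPL3 had FLAG peaks elsewhere. RPS15A encodes a small subunit protein, and its peak (chromosome 16, 18782510 to 18782750) lay inside the gene with 7 tags and a fold of 2.30. Only 4.36% of FLAG peaks had a lower fold. The RPS10 peak (chromosome 6, 34416721 to 34416984) lay 597 bp beyond the far end, with 6 tags and a fold of 2.77. RPS10 is a further gene of Diamond-Blackfan anemia. For both genes the deposited −log10 q was 0. RPL3, a protein close to the peptidyl transferase center, had a peak 4410 bp beyond its far end (chromosome 22, 39308291 to 39308953) with 8 tags, a fold of 3.56 and a −log10 q of 0.779. It is the member just inside the window, and no other gene end was nearer.

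The strongest peak counted for a ribosomal protein gene was that near RPL38, whose product is known for its part in translation of Hox messenger RNAs in the mouse. It spanned chromosome 17, 74213110 to 74213861, and had 36 tags, a fold of 11.8 and a −log10 q of 26.5. By fold it ranked 29 among 9466 FLAG peaks. The summit lay 2778 bp beyond the far end of RPL38 and 138 bp upstream of the start of TTYH2, a gene of the tweety family of membrane proteins, so the peak was centered on another promoter. Of all genes, 0.776% had a FLAG peak with a q under 0.05 within 5 kb, against 1 of 84 members. No member had such a SMAD3 peak, against 0.195% of all genes.

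TTYH2 starts 250 bp from the start of MGC16275, a long noncoding RNA gene on the opposite strand, so the summit lay between divergent starts. Over the 15 peaks examined for this, all but that of RPL30, no other promoter window in the table overlapped a peak. The 250 bases before the TTYH2 start (GRCh38.p14, plus strand) are therefore shown. Capitals mark the single E-box, searched as CANNTG on both strands, which is palindromic.
TTYH2, chr17:74213321-74213570: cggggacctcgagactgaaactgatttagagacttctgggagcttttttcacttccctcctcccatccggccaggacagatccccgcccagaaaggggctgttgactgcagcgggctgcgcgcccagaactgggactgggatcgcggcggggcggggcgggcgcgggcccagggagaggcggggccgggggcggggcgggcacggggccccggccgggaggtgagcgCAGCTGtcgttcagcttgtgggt

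The summit fell on base 113 of this stretch. The E-box, CAGCTG, took bases 228 to 233, with its center 118 bp downstream of the summit. The short SMAD motif GTCT or its reverse complement AGAC occurred at 2 places, centered at -99 and -81 bp relative to the summit, that is upstream of it. A match of letters describes the sequence and is not a measured binding site.

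The members' own promoters were searched for the same motifs. In windows from 250 bases before to 50 after the start, CANNTG was present in 29 of 67 members (43.3%), against 64.6% of 15811 promoters. Among members with a FLAG peak it was 3 of 8. The E-box form CAGCTG, which CANNTG includes, was in 6 of 67 (8.96%) against 17.6%, and CATATG in 1 (1.49%) against 1.87%. The SMAD motif GTCT or AGAC was in 59 of 67 (88.1%) against 82.9%. Among members with an entry, it was in all 5 with a SMAD3 peak, all 8 with a FLAG peak and 46 of 54 with neither. The palindrome GTCTAGAC, which includes both, was in none of the 67, against 0.228% of promoters. GGCGC or its reverse complement GCGCC was in 48 (71.6%) against 62.6%. Median GC content was 59.3% in members and 62.7% in all promoters. No peak counted for these 67 members overlapped the window of that member, so the matches describe the promoters and not the peaks.

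SMAD3 peaks at members were uniformly low, with 6 to 8 tags. The highest fold was at RPS13, a small subunit gene: the peak (chromosome 11, 17078885 to 17079087) lay 1312 bp upstream of the start with 8 tags, a fold of 3.73 and a −log10 q of 0.534. At RPL10A the summit was 433 bp upstream of the start (chromosome 6, 35467786 to 35467988), with 6 tags and a fold of 3.09. FANCE, a DNA repair gene of the Fanconi anemia pathway, ended 866 bp from the same summit. RPL10A is a large subunit protein present in only part of ribosomes in some cells. RPL12, which lies at the base of the ribosomal stalk, had a peak 1132 bp inside the gene (chromosome 9, 127450020 to 127450340) with 7 tags and a fold of 3.09.

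RPL30, RPS29 and RPL28 made up the rest of the SMAD3 set. The RPL30 peak (chromosome 8, 98045114 to 98045342) lay inside the gene, 319 bp from the end with the higher coordinate, with 6 tags and a fold of 3.09. RPL30 also binds the element that directs selenocysteine incorporation. RPS29, a zinc-binding small subunit protein, is annotated over 27723 bp, the longest member. Its peak (chromosome 14, 49594343 to 49594545) lay 4249 bp from the start, with 7 tags, a fold of 3.35 and a −log10 q of 0.179. RPL28 was the single member with 2 peaks. Both were close to its far end: 1 inside, 231 bp from it (chromosome 19, 55402917 to 55403140, 8 tags, 2.86-fold), and 1 beyond it at 3387 bp (55406602 to 55406804, 7 tags, 2.57-fold). The latter was nearer to UBE2S, a ubiquitin-conjugating enzyme gene. In 5 of the 7 SMAD3 peaks the deposited −log10 q was 0. Weak q values were common in that list, where 7.89% of all peaks had a q under 0.05.

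Peaks at members had folds and pileups close to the medians of their lists. Median fold was 3.02 for the 9 FLAG peaks, against 3.16 for the whole list and for the 935 FLAG peaks within 5 kb of any protein-coding gene end. Of the 9, 4 were above the list median. For the 7 SMAD3 peaks the median was 3.09, equal to that of the list, and 3 were above it. Median pileup was 8 tags in FLAG and 7 in SMAD3, as in the lists. Summits inside the member gene numbered 6 of 9 for FLAG and 4 of 7 for SMAD3. Of all peaks near gene ends, 61.9% and 60.3% lay inside any protein-coding gene, a wider measure than inside the member itself. The implied input background at member peaks ran from 1.53 to 3.50 tags in FLAG and from 1.27 to 2.15 in SMAD3, where the lowest values of the lists were 1.53 and 1.27.

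**Figure D3:**
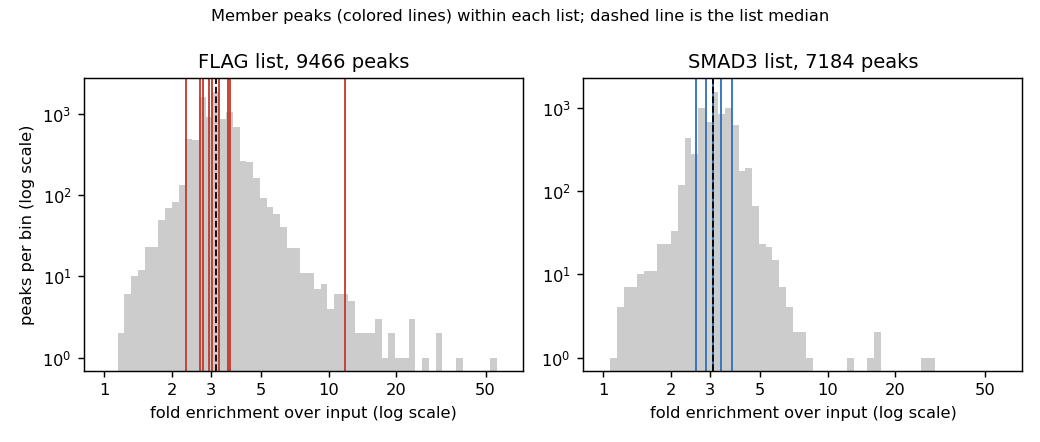
Gray histograms give the number of peaks by fold enrichment over input in the FLAG and SMAD3 lists (both axes on log scales), colored lines mark the peaks counted at ribosomal protein genes and the dashed line is the median of the list. All member peaks but that near RPL38, at 11.8-fold, lie between 2.30 and 3.73, close to the medians of 3.16 and 3.09.

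At each of the 16 peaks the nearest summit of the other list was 24482 bp away or farther. The summit of the other list nearest to a FLAG member peak was 25237 bp away at RPL38 and up to 1738242 bp away at RPL11, with a median of 113720 bp. For SMAD3 member peaks the distances ran from 24482 bp, at RPL28, to 189966 bp, at RPL12, with a median of 87172 bp. Over all 84 members the median distance from a gene end to the nearest summit was 116016 bp for FLAG and 105258 bp for SMAD3. In other genes of the 3 classes of shortest genes, which hold 73 of the 84 members, it was 149446 and 143559 bp, and over all protein-coding genes 125946 and 128936 bp.

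Just outside the window lay RPL9 in the FLAG list and, among others, RPS16, RPL4 and RPS7 in the SMAD3 list. The RPL9 peak was 6707 bp from the gene, with 6 tags and a fold of 2.51, against 4410 bp for RPL3 just inside. In the SMAD3 list the RPS16 peak was 9053 bp away (9 tags, 2.39-fold), and that of RPS7 was 9751 bp away (7 tags, 3.53-fold). RPS29, at 4249 bp, was the outermost member inside. At each of these 4 genes another gene end was nearer to the summit. No member had a summit inside its body but over 5 kb from both ends.

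Both subunits were represented. FLAG peaks lay at 5 of 52 large subunit genes (9.62%) and 4 of 32 small subunit genes (12.5%), against 5.34% of all genes. SMAD3 peaks lay at 4 of 52 (7.69%) and 2 of 32 (6.25%), against 5.47% of all genes. None of the 7 genes with an L suffix had a peak of either list, against 10.4% of all genes. With 7 genes, that count cannot be set apart from the share. The FLAG members were spread over 8 chromosomes and the SMAD3 members over 6, of 21 that hold a member. Median gene length was 7081 bp in members with a FLAG peak, 3779 bp with a SMAD3 peak and 5011 bp with neither.

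Other genes of protein synthesis were set beside the members. Mitochondrial ribosomal proteins, which serve the separate ribosome of mitochondria, had a FLAG peak within 5 kb at 2 of 77 genes (2.60%, exact 95% interval 0.316 to 9.07%). The 2 were MRPL51 (3.64-fold) and MRPL48 (2.66-fold). Their like-length share was 4.62%. A SMAD3 peak was present at 4 of 77 (5.19%, against 5.23%), led by MRPL17 (3.49-fold) and MRPS12 (3.42-fold). The difference in FLAG share between cytosolic and mitochondrial ribosomal protein genes was not tested, and their intervals overlap.

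Elongation factors, which deliver transfer RNA and move the ribosome along, had FLAG peaks at 2 of 11 genes (4.81% at like length). These were EIF5A2 (6.72-fold) and EEF1A1 (6.35-fold, 23 tags), and EEF1A1 was the single SMAD3 gene of the list (3.72-fold, 5.34% at like length). Both FLAG peaks had a q under 0.05. Initiation factors had 2 of 36 in FLAG (5.56%, against 5.42% at like length), EIF2S3 (3.56-fold) and EIF3C (2.96-fold), and 0 in SMAD3 (5.72% at like length). Ribosome biogenesis genes had 3 of 66 in FLAG (4.55%, against 5.41% at like length), among them UTP20 (3.56-fold). They had 6 of 66 in SMAD3 (9.09%, against 5.75% at like length), among them NOP14 and PNO1 at 3.53-fold each. Other genes with TOP transcripts had 2 of 24 in FLAG and 3 of 24 in SMAD3 (4.87% and 5.52% at like length). Here EEF1A1 was counted again, and VIM, which encodes the intermediate filament protein vimentin, had a SMAD3 peak of 3.89-fold. Ribosomal S6 kinases had RPS6KA5 (3.25-fold) and RPS6KL1 (2.56-fold) of 10 genes in FLAG and RPS6KL1 (3.09-fold) in SMAD3 (5.73% and 5.67% at like length). None of these differences from like length was tested.

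**Figure D4:**
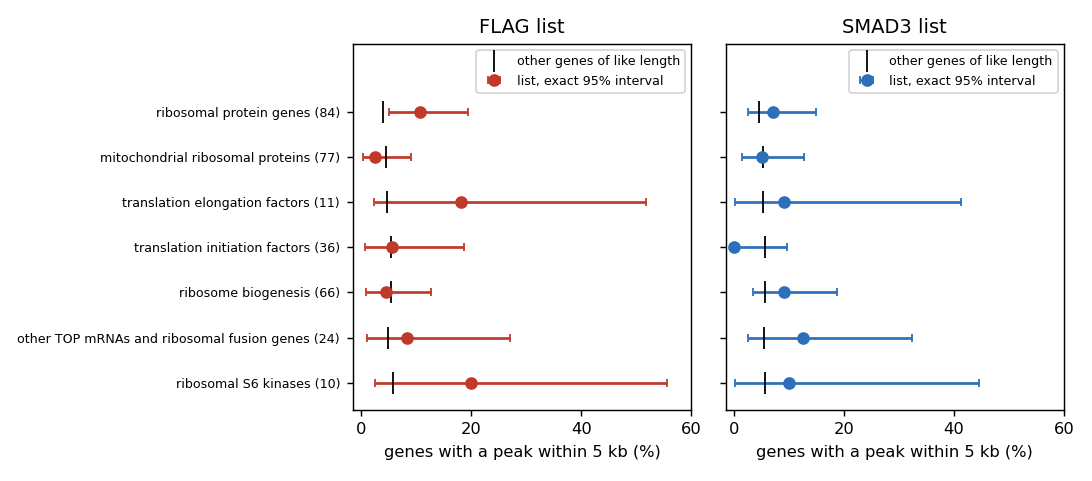
Points give the percentage of genes in each list with a peak within 5 kb of a gene end, horizontal lines the exact 95% interval, black ticks the share in other genes of like length, and numbers in parentheses the genes per list. Ribosomal protein genes are at 10.7% in the FLAG panel and 7.14% in the SMAD3 panel, and mitochondrial ribosomal proteins at 2.60% and 5.19%.

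Pseudogenes of ribosomal proteins did not show a higher share than other pseudogenes. The table held 1984 of them among 16664 pseudogenes on the same chromosomes, named after a member. A FLAG summit lay inside 7 (0.353%), against 0.798% of all pseudogenes, and inside or within 5 kb of 58 (2.92%), against 3.31%. For SMAD3 the counts were 6 (0.302%, against 0.948%) and 47 (2.37%, against 3.44%). These pseudogenes are short, with a median of 539 bp against 772 bp for others. Whether reads shared by a gene and its copies were removed before peak calling is not given in the sources used here. Members with a peak of either list had a median of 13 pseudogenes named after them, and members with neither 16. Whether copies affected peak calls in exons of members was not tested.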

How the data were processed

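ChIP and input libraries of ATOH8-transduced A549 cells were used, 1 per antibody. Alignment with Bowtie2 to hg38 and quality control with FastQC 0.11.8 are given in the submitters' processing notes. Peaks were called with MACS2 2.2.7.1 for each ChIP against its input, with a p cutoff of 0.0065 and 1 tag kept per position, per the file headers. The authors deposited for each peak the pileup signal in tags, the fold enrichment (a ratio to local background), −log10 p and −log10 q. The headers say that q would not be calculated. The deposited −log10 q values were used as they stand. Fold was read only within a list.

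Gene positions came from RefSeq GRCh38.p14, and strand and promoter sequence from its promoter table, which matched 67 of 84 members. A gene had a peak when a summit lay within 5 kb of either end. The share at like length is that of other genes in the same of 10 length classes, weighted to the members. Intervals are exact Clopper-Pearson 95% intervals. Python 3.11.15, numpy 2.4.6, pandas 2.3.3 and scipy 1.17.1 were used. The counting code was checked on 20 simulated lists over 19970 genes, with summits planted within 5 kb of gene ends. It returned 240 of 240 planted members, which says nothing about how well peaks were called.

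The members, gene lists and window were chosen with earlier results of these data known. Named genes are all members with a peak within 5 kb or between 5 and 10 kb, up to 3 genes per related list with the highest fold, and neighbors nearer to a summit; other neighbors, pseudogenes and the division by side of the start were named after their values were seen. A few genes meeting this rule are not reported here. Alternatives concerned thresholds, windows, strand, members and matching.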

Additional observations from a re-analysis of the deposited data

How the results depend on the processing

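Shares of all genes are given in parentheses. At a q under 0.05, 1 member was left for FLAG (0.776%), 0 for SMAD3 (0.195%, ratio to like length 0) and 1 for either list (0.956%). The FLAG ratio to like length at that setting, 2.31, rests on RPL38 alone, whose peak lay nearer to TTYH2. Within 1 kb the counts were 3, 3 and 6 (1.80%, 1.52% and 3.27%). With a fold of 3 or more, 5 FLAG members were left (3.45%). With the transcription start alone (67 members with a strand) there were 5 FLAG members (3.38%) and 9 of either list (6.28%). Within 10 kb there were 10 SMAD3 members (9.65%). No other alternative moved a count of 9, 6 or 15 by over 1.5 times. Members with both lists numbered 0 in each of 4 alternatives (0.0150 to 1.21%). For FLAG the ratio to like length was 1.88 (within 10 kb) to 3.09 (within 3 kb) over 13 alternatives, with 2.82 when chromosome was matched as well and 2.02 against all genes. For either list it was 1.73 to 2.61, and for SMAD3, beside the 0 above, 1.31 to 2.67. Counting each peak only at the nearest gene end was chosen after seeing the data. It left 7 FLAG and 6 SMAD3 members (4.45% and 4.46% of all genes), with ratios of 2.61 and 2.05. No paired analysis was possible because there was 1 library per antibody. Pileups of 6 to 11 tags at all member peaks but that near RPL38 limit what depth can show here.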

Other observations

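Among ribosomal protein pseudogenes with a FLAG summit inside, RPS20P29 had the highest fold, 3.95 with 10 tags (chromosome 12, 7860478 to 7860741, −log10 q of 1.62), and it was the single one of the 7 with a q under 0.05. RPL32P32 followed at 3.78-fold (chromosome 17, 60245393 to 60245727). In the SMAD3 list RPL18P5 was highest, at 3.97-fold with 8 tags (chromosome 7, 137164363 to 137164580). The SMAD3 peak inside RPL21P94 (chromosome 11, 6685849 to 6686051, 3.49-fold) is the peak counted above for MRPL17, so a cytosolic pseudogene and a mitochondrial ribosomal protein gene shared it.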
